A study of Mus musculus with 10 samples.

Results

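Heat shock chaperones of the cytosol and of the mitochondrial matrix were examined in single mouse hepatocytes, the main cells of the liver parenchyma. The set has 10 genes, taken by symbol from 14812 gene entries: Hsp90aa1, Hsp90ab1, Hspa8, Hspa1b, Hsph1, Dnajb1, Dnaja1, Hspe1, Hspd1 and Hspb1, which the files write in lower case (hsp90aa1, hsp90ab1, hspa8, hspa1b, hsph1, dnajb1, dnaja1, hspe1, hspd1 and hspb1). All 10 were found, and all 10 passed the filter on low values (3 CPM or more on average over the libraries; CPM is explained below). The libraries came from C57BL/6 male mice at 3 postnatal months that ate regular chow ad libitum and were anaesthetised with ketamine and xylazine. No group carried a mutation or a drug of interest: the 4 groups differ in zeitgeber time (ZT), the hour of the light-dark cycle, with ZT0 by convention at lights on. There were 3 libraries at ZT0 (A, B and C), 2 at ZT6 (A and B), 3 at ZT12 (A, B and C) and 2 at ZT18 (A and B). How many mice went into a library is not given in the labels, so p-values measure the spread between libraries, which may be technical in part.

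Chaperones bind proteins that are not yet folded or have come unfolded. Hsp70 proteins (Hspa8, always made, and Hspa1b, made on stress) take hold of a client with the help of J-domain partners (Dnaja1, Dnajb1), and nucleotide exchange factors such as Hsph1 let it go. Hsp90 (Hsp90aa1, the inducible form, and Hsp90ab1, the constitutive form) receives many of these clients, among them the glucocorticoid receptor. In the mitochondrial matrix Hspd1 (Hsp60) forms a barrel that Hspe1 (Hsp10) closes as a lid, and Hspb1 (Hsp25 in mice) is a small heat shock protein that holds unfolded clients without ATP. The transcription factor Hsf1 switches on many of these genes by binding heat shock elements, which are inverted repeats of the unit GAA in their promoters.

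The libraries held 710 to 2860 cells and 1454623 to 7144803 UMIs (unique molecular identifiers, each counting 1 captured mRNA molecule), with 1588 to 2662 UMIs in the median cell. Levels below are CPM, a gene's UMIs in every 1000000 UMIs of its library after TMM scaling, so that a value is a share of the captured mRNA. The hepatocyte marker genes summed to 32800 to 66694 CPM per library. Of the markers of other cells, endothelial genes summed to at most 14.1 CPM, macrophage genes to at most 7.27 CPM with Clec4f and Csf1r at 0, and lymphocyte genes to at most 0.59 CPM with Cd3e, Cd79a and Nkg7 at 0. Cholangiocyte genes summed to 17.6 to 36.6 CPM at ZT0 and 12.2 to 17.7 CPM at ZT18, against 0.79 to 4.05 CPM at ZT6 and 3.36 to 5.71 CPM at ZT12, without overlap between those sides. Nearly all of that was Sox9, with 565 UMIs in all libraries together, while Epcam had 3, Krt7 3, Krt19 2 and Muc1 4. The same split of times recurs for Hspb1 below, and its part in the chaperone levels was not tested. ZT18B stood apart in haemoglobin mRNA, with 308 CPM over 4 globin genes against 0.33 to 9.01 CPM in the other 9 libraries. The labels also give each library a 10x sample index. Its column number was 3 for ZT0A and ZT12A, 5 for ZT0C and ZT12C, 7 for ZT0B, ZT12B and both ZT6 libraries, and 4 for both ZT18 libraries and no other. ZT18 and that index column cannot be told apart, and results that rest on ZT18 are given without those libraries where a fit allows it. The median share of mitochondrially encoded UMIs per cell was 12% to 24.7%, highest in ZT12A. Barcode sequences shared between libraries were not counted, because the cell names carry none.

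The promoters of the members were read first, since heat shock elements are what these genes are known for. A window of 250 bases before to 50 after an annotated start site was at hand for 7 of the 10 members, from RefSeq on GRCm38.p6 (mm10). The windows were searched on both strands for a pair of facing units, GAANNTTC, and for a pair of units back to back, TTCNNGAA; both read the same on either strand, and matches may overlap. Hspe1, Hspd1, Dnaja1, Hspb1, Hsph1 and Hspa1b held at least 1 match in at least 1 window, and Dnajb1 held none in either of its windows. Counted by window, 7 of 12 windows of members held a match, against 15.1% of all 32851 windows of that length and 16 of 77 windows (20.8%) of other chaperones and co-chaperones. The 7 windows are not separate sites. Both Hsph1 windows overlap and hold the same pairs, and Hspe1 and Hspd1 share theirs. A run of 3 alternating units, the form in which Hsf1 is known to bind as a trimer, was present in 0.603% of all windows. The stretches with matches are shown to let the genes be compared, 5′ to 3′ on the strand of the gene, with the matched pairs in capitals.
Hspe1, chr1:55088053-55088082, plus strand: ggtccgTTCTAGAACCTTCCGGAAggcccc
Hspd1, chr1:55088053-55088082, minus strand: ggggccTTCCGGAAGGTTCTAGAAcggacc
Dnaja1, chr4:40722333-40722362, plus strand: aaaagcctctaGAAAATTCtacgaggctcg
Hsph1, chr5:149636351-149636380, minus strand: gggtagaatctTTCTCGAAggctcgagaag
Hspb1, chr5:135887756-135887875, plus strand: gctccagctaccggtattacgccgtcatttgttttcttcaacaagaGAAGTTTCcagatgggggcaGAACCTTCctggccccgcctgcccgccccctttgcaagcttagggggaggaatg
Hspa1b, chr17:34959279-34959398, minus strand: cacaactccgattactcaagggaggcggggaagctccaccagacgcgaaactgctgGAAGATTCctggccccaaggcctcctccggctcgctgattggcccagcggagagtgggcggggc
Hspe1 and Hspd1, which encode the lid and the barrel of one machine, lie head to head on chromosome 1, and their lines are the same bases read from either strand, with 3 overlapping pairs. Hspb1 held 2 separate pairs, and Dnaja1 and Hspa1b 1 each. Hsph1 held 3 pairs in all, of which the line shows 1. A match is a description of these letters and not evidence of binding.

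Hsp90aa1, the inducible cytosolic Hsp90, had the lowest adjusted p of the set for a 24-h rhythm. It measured 366, 254 and 299 CPM in ZT0A, B and C, 84.8 and 78.9 CPM in ZT6A and B, 129, 123 and 136 CPM in ZT12A, B and C, and 424 and 521 CPM in ZT18A and B. The order was ZT18, ZT0, ZT12 and ZT6, and no library of one time overlapped with its neighbour in that order. In a 24-h cosine fit it peaked at ZT19.8 with a log2 amplitude, the distance from mean to peak, of 1.41, a fold of 7.05 from trough to peak (adjusted p = 5.45e-05; adjusted p-values are Benjamini-Hochberg values from edgeR's quasi-likelihood fit of all genes). Without both ZT18 libraries the fit gave a peak at ZT19.7 with an amplitude of 1.43 (edgeR adjusted p = 0.00131). Only ZT0, ZT6 and ZT12 are left in that fit, and the cosine passes through any means of these times. Its peak is thus extrapolated to hours without a library, and its p-value speaks only for differences among those times. Within index column 7, ZT0B at 254 CPM lay above ZT12B at 123 CPM, and ZT12B above ZT6A at 84.8 CPM. With the index column as a block the amplitude was 1.27 (edgeR adjusted p = 2.66e-04). The column of both ZT18 libraries holds no other library, so that block absorbs their level. This fit too rests on ZT0, ZT6 and ZT12 alone, and its amplitude is likewise extrapolated. Hsp90aa1 was higher at ZT18 than at ZT6 by 2.53 ± 0.25 (log2, SE; adjusted p = 1.41e-04 by edgeR) and lower at ZT12 than at ZT0 by a log2 difference of -1.25 ± 0.20 (edgeR adjusted p = 0.00286).

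Over the whole set, the rhythm test called 3 of 10 genes, Hsp90aa1, Hsph1 and Hspb1, and it called 5.14% of the 8908 genes tested. With the library letters as a block it called 5 of 10, adding Dnaja1 and Hspe1, and 749 genes in place of 458. That block also ties the ZT6 and ZT18 libraries by letter, though the libraries of each of those times share an index column. With the index column as a block the rhythm test called 4 of 10, adding Hspe1 (edgeR adjusted p = 0.0325). That block absorbs the level of both ZT18 libraries, so its fit rests on ZT0, ZT6 and ZT12 alone. The median log2 amplitude of the 10 was 0.66, against 0.25 over all genes. ZT18 against ZT6 called 3 of 10 higher (Hsp90aa1, Hsph1 and Dnaja1) and none lower, against 3.79% of all genes called, 2.35% higher and 1.45% lower. All 10 members had a positive log2 difference, with a median of 1.31 against -0.0090 over all genes. ZT12 against ZT0 called 2 of 10 lower (Hsp90aa1 and Hspb1) and none higher, against 3.44% of all genes called, 1.7% lower and 1.74% higher. The median log2 difference was -0.41 against -0.00075. Scaling by library size alone moved the split over all genes to 202 higher and 101 lower, and called the same number of members, 2. With the letters as a block ZT12 against ZT0 called 3 of 10, adding Hspe1, and 504 genes in place of 306. Both contrasts and the cosine fit use the same libraries, so they are not separate evidence. In the libraries themselves, both ZT18 values lay above both ZT6 values for 8 of 10 members (not for Hspa1b and Hspe1). With only 2 libraries a side, 63.1% of all genes were apart in one direction or the other. All 3 ZT12 values lay below all 3 ZT0 values for Hsp90aa1, Hspe1 and Hspb1. Between those times 17% of all genes were apart in one direction or the other. Neither share of all genes was split by direction, while the members that were apart went one way in each comparison.

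**Figure D1:**
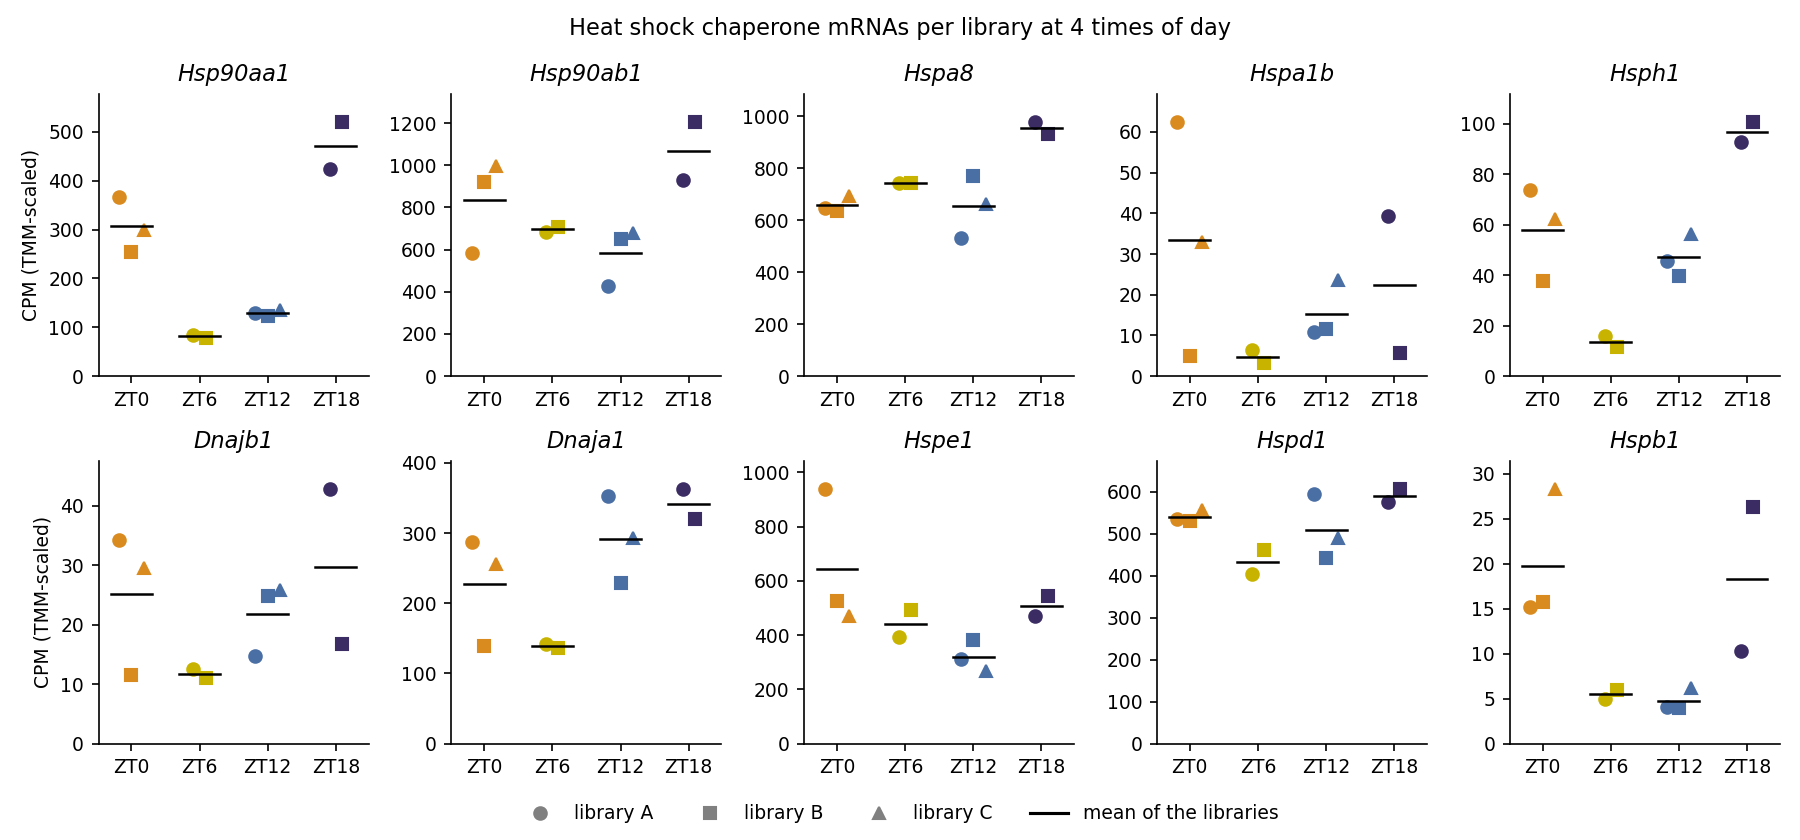
Level of each of the 10 chaperone mRNAs (vertical axis, TMM-scaled CPM from 0, with its own scale in each panel) by time of day (horizontal axis). Each point is a library (circle A, square B, triangle C) and the bar is the mean of the libraries at that time. Hsp90aa1 and Hsph1 are low in both ZT6 libraries and highest in both ZT18 libraries, while Hspa1b ranges from 4.94 to 62.5 CPM among the ZT0 libraries alone.

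Hsph1, the Hsp110 exchange factor for Hsp70, followed a like course at a lower level. It measured 73.9, 37.8 and 62.1 CPM in ZT0A, B and C, 16 and 11.4 CPM at ZT6, 45.6, 39.8 and 56.2 CPM at ZT12, and 92.6 and 101 CPM at ZT18. Both ZT6 libraries were below all the others and both ZT18 libraries above them, while ZT0 and ZT12 overlapped. The fitted peak was at ZT18.4 with a log2 amplitude of 1.37 (edgeR adjusted p = 0.00444), and at ZT18.3 with 1.91 without both ZT18 libraries (edgeR adjusted p = 0.0111). The latter peak is again extrapolated to hours without a library. Hsph1 was higher at ZT18 than at ZT6 by 2.79 ± 0.33 on the log2 scale (edgeR adjusted p = 3.29e-04), and its ZT12 to ZT0 difference of -0.30 ± 0.25 did not pass (edgeR adjusted p = 0.611).

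Hspb1, the small heat shock protein, was the scarcest member, with 566 UMIs in all libraries together and 6 in ZT12A. It measured 15.1, 15.7 and 28.3 CPM in ZT0A, B and C, 5.01 and 5.91 CPM at ZT6, 4.03, 4.01 and 6.15 CPM at ZT12, and 10.3 and 26.3 CPM at ZT18. ZT0 and ZT18 overlapped on the high side and ZT6 and ZT12 on the low side, with no overlap between the sides. The cholangiocyte marker sum, nearly all Sox9, had the same sides. The fitted peak was at ZT21.3 with a log2 amplitude of 1.37 (edgeR adjusted p = 0.00543), and at ZT21.4 with 1.33 without both ZT18 libraries (edgeR adjusted p = 0.00421). The latter peak is likewise extrapolated to hours without a library. Hspb1 was lower at ZT12 than at ZT0 by a log2 difference of -2.09 ± 0.39 (edgeR adjusted p = 0.0081), and without ZT12B this difference was -1.74 and no longer passed (edgeR adjusted p = 0.0632). Its ZT18 to ZT6 difference of 1.77 ± 0.46 lay just outside the threshold (edgeR adjusted p = 0.0508) and within it in 9 of 19 alternatives.

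Dnaja1, a J-domain partner that stimulates the ATPase of Hsp70, was lowest at ZT6 but ordered the other times differently. It measured 287, 139 and 255 CPM in ZT0A, B and C, 142 and 136 CPM at ZT6, 353, 229 and 293 CPM at ZT12, and 362 and 320 CPM at ZT18. The ZT12 libraries overlapped with those of ZT18 and of ZT0, and ZT0B lay between both ZT6 libraries. Dnaja1 was higher at ZT18 than at ZT6 by 1.30 ± 0.32 (edgeR adjusted p = 0.0424), a call that was lost in 6 of 20 alternatives: with library size alone and without ZT6A, ZT6B, ZT12C, ZT18A or ZT18B, with adjusted p up to 0.272. Its 24-h fit, with a peak at ZT17.0 and a log2 amplitude of 0.67, did not pass (edgeR adjusted p = 0.0763). With the library letters as a block the fit passed (edgeR adjusted p = 0.0172), and with the index column as a block it did not. The letters pair the ZT0 and ZT12 libraries, but this block also ties the ZT6 and ZT18 libraries by letter alone.

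The mitochondrial pair is set side by side because both mRNAs encode parts of one machine. Hspe1, the lid, measured 938, 528 and 469 CPM in ZT0A, B and C, 392 and 491 CPM at ZT6, 313, 382 and 267 CPM at ZT12, and 469 and 544 CPM at ZT18. All ZT12 libraries were below all the others, and ZT0A was far above them. Its log2 difference of -1.01 ± 0.27 between ZT12 and ZT0 did not pass (edgeR adjusted p = 0.0624), nor did its 24-h fit with a peak at ZT23.3 (edgeR adjusted p = 0.0909). With the letters as a block both passed (edgeR adjusted p = 0.0232 and 0.0423). In that block the ZT6 and ZT18 libraries are tied by letter alone. Hspd1, the barrel, was among the steadiest: 536, 530 and 556 CPM at ZT0, 404 and 461 CPM at ZT6, 596, 442 and 491 CPM at ZT12, and 575 and 606 CPM at ZT18. Its highest library was 1.5 times its lowest, and no time test called it (edgeR adjusted p from 0.334 to 0.886).

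Hspa8 and Hsp90ab1, the constitutive Hsp70 and Hsp90, had no called difference between times. Hspa8 measured 647, 634 and 692 CPM at ZT0, 742 and 744 CPM at ZT6, 530, 772 and 662 CPM at ZT12, and 979 and 931 CPM at ZT18. Both ZT18 libraries were the highest, but the log2 difference of 0.36 ± 0.25 from ZT6 was within the spread (edgeR adjusted p = 0.472). Hsp90ab1 measured 584, 922 and 995 CPM at ZT0, 682 and 709 CPM at ZT6, 427, 651 and 677 CPM at ZT12, and 931 and 1207 CPM at ZT18. In both ZT0 and ZT12 the A library was well below the others. None of its 3 time tests passed (edgeR adjusted p from 0.27 to 0.372).

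The balance of both Hsp90 forms was read as a share. Because the 3′ kit counts molecules by their ends, the share needs no correction for length, but capture of either mRNA may differ and the level of the share carries that. Hsp90aa1 made up 38.5%, 21.6% and 23.1% of the Hsp90aa1 and Hsp90ab1 UMIs in ZT0A, B and C, 11.1% and 10.0% at ZT6, 23.2%, 15.9% and 16.7% at ZT12, and 31.3% and 30.2% at ZT18. The means were 27.8% ± 9.37 (SD, n = 3), 10.5% ± 0.743 (SD, n = 2), 18.6% ± 4.0 (SD, n = 3) and 30.7% ± 0.782 (SD, n = 2). An exact permutation test over libraries of the F statistic among the 4 times gave p = 0.043 (one-sided in F, 25200 arrangements, smallest possible p = 1.59e-04). Leaving out ZT0A or ZT0B gave exact p = 0.00397 and 0.0317, and leaving out any other single library gave exact p from 0.0603 to 0.129. The share of Hspe1 among Hspe1 and Hspd1 UMIs was 53.1% ± 9.36 at ZT0 (SD, n = 3), 50.4% ± 1.70 at ZT6 (SD, n = 2), 38.7% ± 6.65 at ZT12 (SD, n = 3) and 46.1% ± 1.65 at ZT18 (SD, n = 2). It did not pass the same exact permutation test (p = 0.121). With Benjamini-Hochberg adjustment over these 2 exact tests the values were 0.086 and 0.121, so neither share passed after adjustment. These tests do not use the pairing of ZT0 and ZT12 by letter. Within the 3 pairs the Hsp90aa1 share was higher at ZT0 by 5.73 to 15.4 percentage points and the Hspe1 share by 3.55 to 29.2, in 3 of 3 pairs each. An exact two-sided test over 3 pairs cannot go below p = 0.25.

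**Figure D2:**
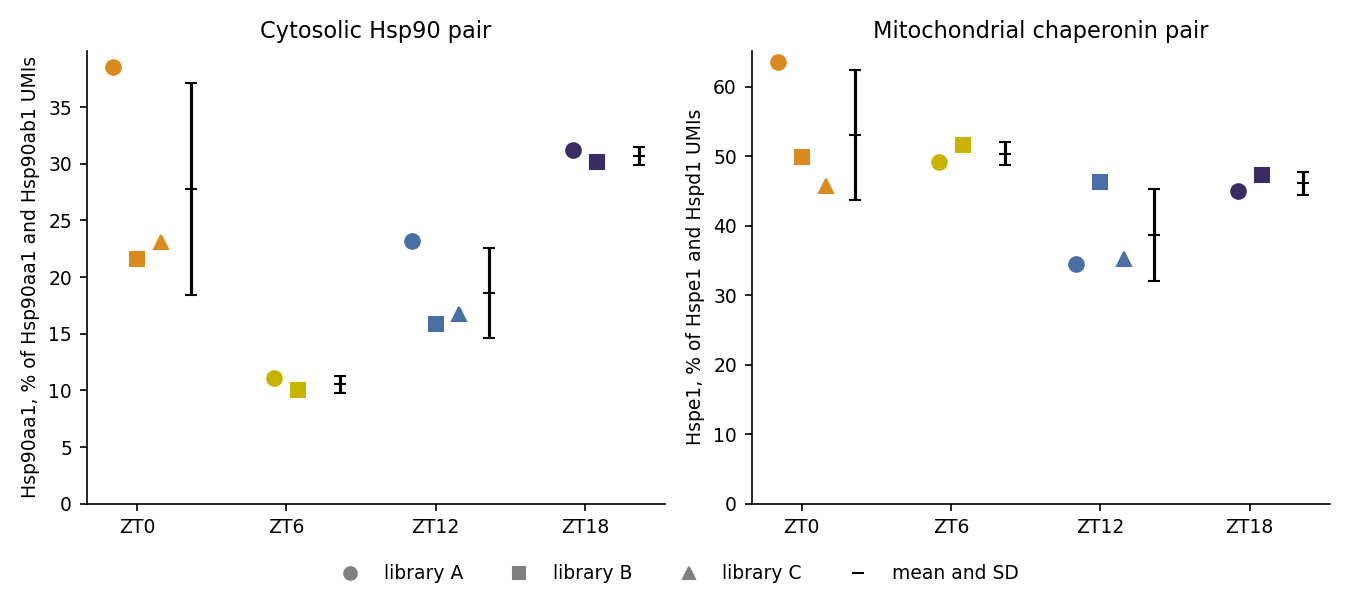
Hsp90aa1 as a percentage of Hsp90aa1 and Hsp90ab1 UMIs (left) and Hspe1 as a percentage of Hspe1 and Hspd1 UMIs (right), by time. Points are libraries (circle A, square B, triangle C), and the black bar beside them is the mean with its SD. The Hsp90aa1 share is 10.0% to 11.1% at ZT6 and 30.2% to 31.3% at ZT18, with ZT0A above both at 38.5%.

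Hspa1b, the stress-induced Hsp70, varied more between libraries of the same time than nearly any other gene. It measured 62.5, 4.94 and 33.0 CPM in ZT0A, B and C, 6.36 and 3.15 CPM in ZT6A and B, 10.7, 11.6 and 23.7 CPM in ZT12A, B and C, and 39.2 and 5.66 CPM in ZT18A and B. ZT0 alone spanned nearly the whole range of the 10 libraries, and ZT18A and ZT18B lay on opposite sides of every ZT12 library. These are counts of 318, 32, 201, 33, 8, 16, 84, 54, 122 and 20 UMIs in the same order, and 21 of the 318 in ZT0A came from 1 cell. Its SD of log2(CPM + 1) within a time was 1.34, at percentile 99.7 of all genes, whose median was 0.30. For these SDs alone, CPM was scaled by library size without TMM. Dnajb1 had an SD of 0.66 (percentile 96.4), Hspb1 one of 0.53 (percentile 92.1) and Hsp90ab1 one of 0.40 (percentile 76.5). Hspa8 (0.20, percentile 14.0), Hsp90aa1 (0.19, percentile 11.3) and Hspd1 (0.16, percentile 5.79) had a smaller SD than most genes. That SD includes counting noise, which is small for abundant genes. By edgeR's dispersion, which sets counting noise aside, these genes were near the median gene (percentiles 51.5, 46.9 and 45.3). Hspa1b was still at percentile 99.6 by that measure. No time test called Hspa1b, although its log2 difference between ZT18 and ZT6 was 2.12 ± 1.01 (edgeR adjusted p = 0.268) and its fitted amplitude was 1.12 (edgeR adjusted p = 0.363). Without ZT18A that difference was 0.16. Hspa1a, the neighbouring copy of Hspa1b on chromosome 17, had 78 UMIs in all and did not pass the filter. The last 300 bases of both transcripts were not near-identical (at least 95% over at least 90 bases), so reads of one are not readily taken for the other there.

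Dnajb1, a J-domain partner of Hsp70, resembled Hspa1b from library to library. It measured 34.2, 11.6 and 29.6 CPM in ZT0A, B and C, 12.5 and 11 CPM at ZT6, 14.8, 24.9 and 25.9 CPM at ZT12, and 42.8 and 16.7 CPM at ZT18. The libraries low in Hspa1b (ZT0B, ZT6A, ZT6B and ZT18B) were among the low ones in Dnajb1, and ZT0A, ZT0C and ZT18A were the highest in both. Of the 4335 genes that averaged 20 CPM or more, Dnajb1 was the one most like Hspa1b over the 10 libraries (Pearson r of log2(CPM + 1) = 0.93, Spearman rho = 0.95, and r = 0.91 without ZT0A and ZT18A). The next were Ginm1 (r = 0.92), Nolc1 (0.88), Hypk (0.85) and Srsf9 (0.85). The genes most like Hsp90aa1 were Sel1l (r = 0.96), Dnajb11 (0.96), Manf (0.95), Api5 (0.94) and Hist1h1c (0.94). Those most like Hspa8 were Mettl7a1 (r = 0.95), Usp10 (0.91), Etfdh (0.91), Chchd3 (0.91) and Rpl9 (0.91). These values describe the same 10 libraries, which share their time and handling, and carry no test.

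**Figure D3:**
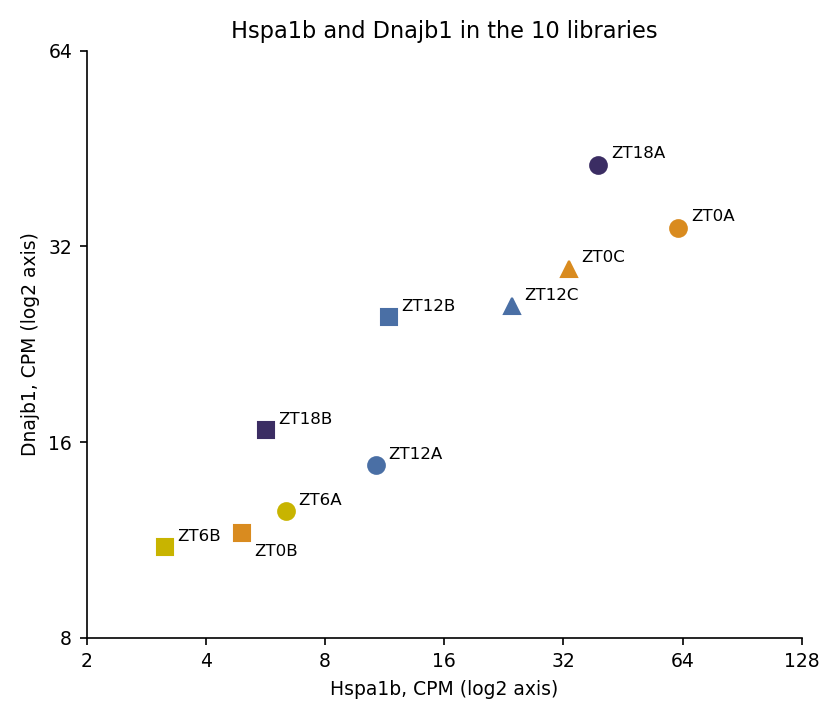
Dnajb1 against Hspa1b in the 10 libraries, both in TMM-scaled CPM on log2 axes; color gives the time and the shape the letter of the library. Libraries of 1 time lie far apart: ZT0B sits at 4.94 CPM of Hspa1b and ZT0A at 62.5 CPM, and ZT18B at 5.66 CPM and ZT18A at 39.2 CPM.

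Since liver dissociation can itself switch on stress genes, a list of 28 immediate early and stress-response genes was read beside the members. Of these, 27 were in the files and 22 passed the filter. None of the 22 was called by edgeR for rhythm, for ZT18 against ZT6 or for ZT12 against ZT0, although 7, 8 and 11 of them had an unadjusted p under 0.05. The share of all genes under that unadjusted threshold is not given here. DESeq2 called 3 for rhythm, none between ZT18 and ZT6, and 1 between ZT12 and ZT0. The median log2 difference of the 22 between ZT12 and ZT0 was -0.56, against -0.41 for the members and -0.00075 over all genes. Between ZT18 and ZT6 it was -0.36, against 1.31 and -0.0090. Their median log2 amplitude was 0.50, against 0.66 and 0.25. The summed level of the 27 genes was 1365 to 2417 CPM, highest in ZT0C, ZT12C and ZT6B and 1627 CPM in ZT0A, where Hspa1b was highest. Their part in the chaperone levels was not tested. Of the cold-inducible genes Cirbp and Rbm3, which fall when tissue warms, Cirbp was rhythmic with a peak at ZT7.21 (log2 amplitude 1.11, edgeR adjusted p = 0.0154) and lower at ZT18 than at ZT6 by a log2 difference of -2.13 ± 0.44 (edgeR adjusted p = 0.0187). Rbm3 was not called for rhythm (edgeR adjusted p = 0.191). Body temperature was not among the labels, and its part was not tested.

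Other chaperones and co-chaperones were read from a list of 76 genes, of which 73 were in the files and 64 passed the filter in the time tests. The rhythm test called 6 of the 64 (9.38%, against 5.14% of all genes), with a median amplitude of 0.23 against 0.25. Of these, 4 peaked between ZT15 and ZT21: Hspa4l, an Hsp110 protein like Hsph1 (amplitude 1.10, peak at ZT19.6, edgeR adjusted p = 0.00155), Cacybp (0.65), Fkbp4, an immunophilin partner of Hsp90 on steroid receptors (0.63), and Ahsa2, named for its likeness to the Hsp90 ATPase activator (0.60). Clpx, the unfoldase of the mitochondrial ClpXP protease, peaked at ZT22.6 with an amplitude of 1.35 (edgeR adjusted p = 5.27e-04). It fell from 224 ± 24.3 CPM at ZT0 (SD, n = 3) to 38.8 ± 9.07 CPM at ZT12 (SD, n = 3), a log2 difference of -2.55 ± 0.21 (edgeR adjusted p = 1.42e-05). Fkbp5, a glucocorticoid-induced partner of Hsp90, peaked on the other side of the day at ZT11.9 (amplitude 1.09, edgeR adjusted p = 0.0142), with 59.4 ± 9.07 CPM at ZT12 against 13.1 ± 9.55 CPM at ZT0 (SD, n = 3 each). ZT18 against ZT6 called 5 of 64 higher (Hspa4l, Cacybp, Ahsa2, Fkbp4 and Clpx) and none lower, against 2.35% and 1.45% of all genes. ZT12 against ZT0 called 2 higher (Fkbp5 and Dnajb6) and 2 lower (Clpx and Hspa4l), against 1.74% and 1.7% of all genes.

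Chaperones of the endoplasmic reticulum, an 18-gene list that all passed the filter, were set beside the members for comparison. The rhythm test called 6 of them (33.3%, against 5.14% of all genes), with peaks from ZT19.2 (Hspa5, the Hsp70 of that compartment) to ZT22.8 (Pdia3). Hspa5 measured 288 ± 26.9 CPM at ZT6 and 1112 ± 211 CPM at ZT18 (SD, n = 2 each), a log2 difference of 1.95 ± 0.32 (edgeR adjusted p = 0.00495).

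For position in the lobule, the cells of each library were ordered by the balance of 8 periportal and 8 pericentral landmark genes, and cut into 3 parts of equal cell number. The outer 2, here the pericentral and the periportal zone, were compared with the library as a block. Blood enters a lobule at the portal side and leaves at the central vein. Genes that were not landmarks fell on the side known for them: Glul was lower in the periportal zone by a log2 difference of -4.05 and Cyp7a1 by -3.68, while Cdh1 was higher by 4.22 and Sds by 3.13. The order is of RNA scores and not of measured positions. Where members differed between zones, they were higher on the pericentral side: the test called 5 of 10 pericentral and none periportal, against 24.6% of 8907 genes called, 12.7% pericentral and 11.9% periportal. Scaling by library size alone called 7 of 10 pericentral, and moved the split over all genes to 1823 pericentral and 702 periportal. The median log2 difference of the 10 was -0.20, against -0.0060 over all genes. The same 5 members were higher in the pericentral zone in all 10 libraries, as were 5.6% of all genes.

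Hspa1b had the steepest difference of the set. Its pericentral and periportal zones measured 98.9 and 45.3 CPM in ZT0A, 10.2 and 2.45 CPM in ZT0B, 54.1 and 13.1 CPM in ZT0C, 11.7 and 3.51 CPM in ZT6A, and 8.0 CPM and 0 in ZT6B. They measured 10.2 and 5.29 CPM in ZT12A, 22.0 and 4.05 CPM in ZT12B, 28.1 and 17.8 CPM in ZT12C, 67.0 and 25.3 CPM in ZT18A, and 10.5 and 0.83 CPM in ZT18B. Every library had more on the pericentral side, whatever its overall level, although ZT12A rests on 5 UMIs against 3 and ZT6B on 7 against 0, a count that allows up to 3.49 CPM (3 counts, counting error only). The log2 difference was -1.56 ± 0.16, a fold of 2.96 (edgeR adjusted p = 7.23e-10). The level of Hspa1b differed up to 19.8-fold between libraries, but its slope along the lobule had the same sign in each.

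Dnaja1 was 1.42-fold higher pericentrally (log2 difference -0.51 ± 0.064, edgeR adjusted p = 8.7e-08), with library differences from -0.82 to -0.32. Hsp90aa1 was 1.36-fold higher (-0.44 ± 0.071, edgeR adjusted p = 8.26e-06), from -0.70 in ZT0C to -0.094 in ZT12A. Hspb1 was 1.66-fold higher (-0.73 ± 0.15, edgeR adjusted p = 1.75e-04), on 2 UMIs in either zone of ZT12A and up to 85 against 33 in ZT0C. Hspd1 was 1.18-fold higher (-0.24 ± 0.060, edgeR adjusted p = 0.00241). In cells of at least 3000 UMIs alone, Hspd1 and Hspb1 no longer passed, with edgeR adjusted p of 0.0574 and 0.0517. Hsp90ab1, with a log2 difference of -0.16 ± 0.060, lay just outside the threshold (edgeR adjusted p = 0.0523) and passed in 7 of 23 alternatives. The other 4 did not pass: Hsph1 at -0.13 ± 0.092, Hspe1 at -0.10 ± 0.071, Dnajb1 at -0.047 ± 0.14 and Hspa8 at 0.065 ± 0.078 (edgeR adjusted p from 0.317 to 0.858). With library size alone Hspa8 measured -0.035. Without both ZT18 libraries the same count of 5 was called, and Hspa8 measured 0.17 (edgeR adjusted p = 0.144).

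The mitochondrial share moved with the zones: its median over cells was higher in the periportal zone in 10 of 10 libraries, by 1.82 to 6.63 percentage points. In cells under 20% mitochondrial UMIs the 5 members were called with the same sign, and Hsph1 passed too (edgeR adjusted p = 0.0443). The dissociation-response genes were called on both sides, more of them periportally. Of 22 tested, 7 were higher periportally (Btg2, Fos, Junb, Btg1, Gadd45g, Egr1 and Klf6) and 3 pericentrally (Jun, Gadd45a and Cebpb), against 11.9% and 12.7% of all genes.

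**Figure D4:**
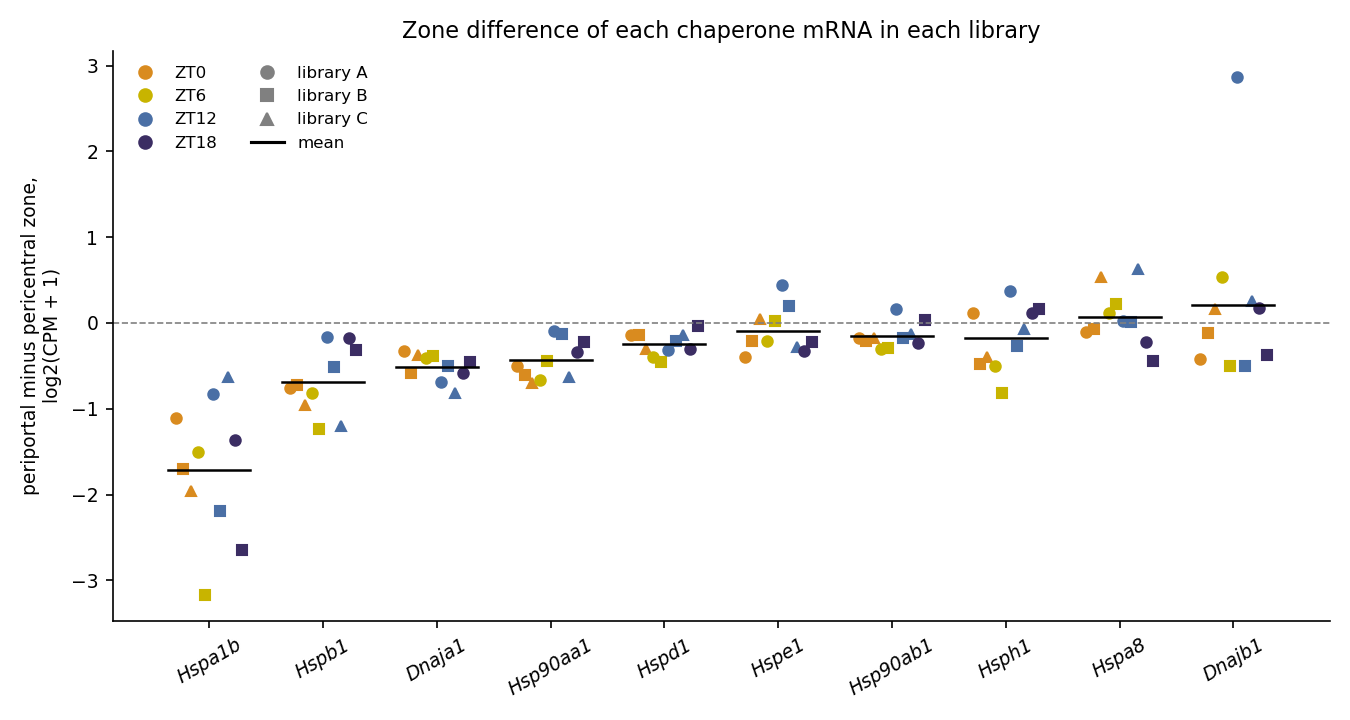
Difference between the periportal and the pericentral zone of the cell order (vertical axis, log2(CPM + 1), negative where the pericentral side is higher) for each chaperone, ordered by median. Points are libraries, colored by time and shaped by letter, and the bar is their mean. All 10 points of Hspa1b, Hspb1, Dnaja1, Hsp90aa1 and Hspd1 lie below 0; the point of Dnajb1 at 2.87 is ZT12A, with 1 UMI in its pericentral zone and 12 in its periportal zone.

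Over 8 layers of equal cell number, the decline from the central side was not even. Hspa1b averaged 39.3 ± 38.3 CPM in layer 1 (SD, n = 10), the most pericentral by score, 18.1 ± 18.4 CPM in layer 4 and 12.8 ± 17.7 CPM in layer 8. Relative to each library's own mean, which removes the difference between libraries, these were 2.26 ± 0.92, 0.79 ± 0.45 and 0.47 ± 0.28. Layers 5 to 8 all lay between 0.39 and 0.62, so most of the decline fell in the inner part. Dnaja1 went from 1.31 ± 0.13 in layer 1 to 0.85 ± 0.0798 in layer 8, and Hsp90aa1 from 1.29 ± 0.20 to 0.88 ± 0.092. Each of these 3 genes was highest in layer 1 in 8 of 10 libraries. Hspd1 went from 1.14 ± 0.0821 to 0.93 ± 0.0577, and Hspa8 stayed between 0.94 and 1.05 throughout. Hsp90aa1 made up 24% ± 9.49 of the Hsp90 UMIs in the pericentral zone and 20.7% ± 8.67 in the periportal zone (SD, n = 10), and was higher pericentrally in 9 of 10 libraries.

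**Figure D5:**
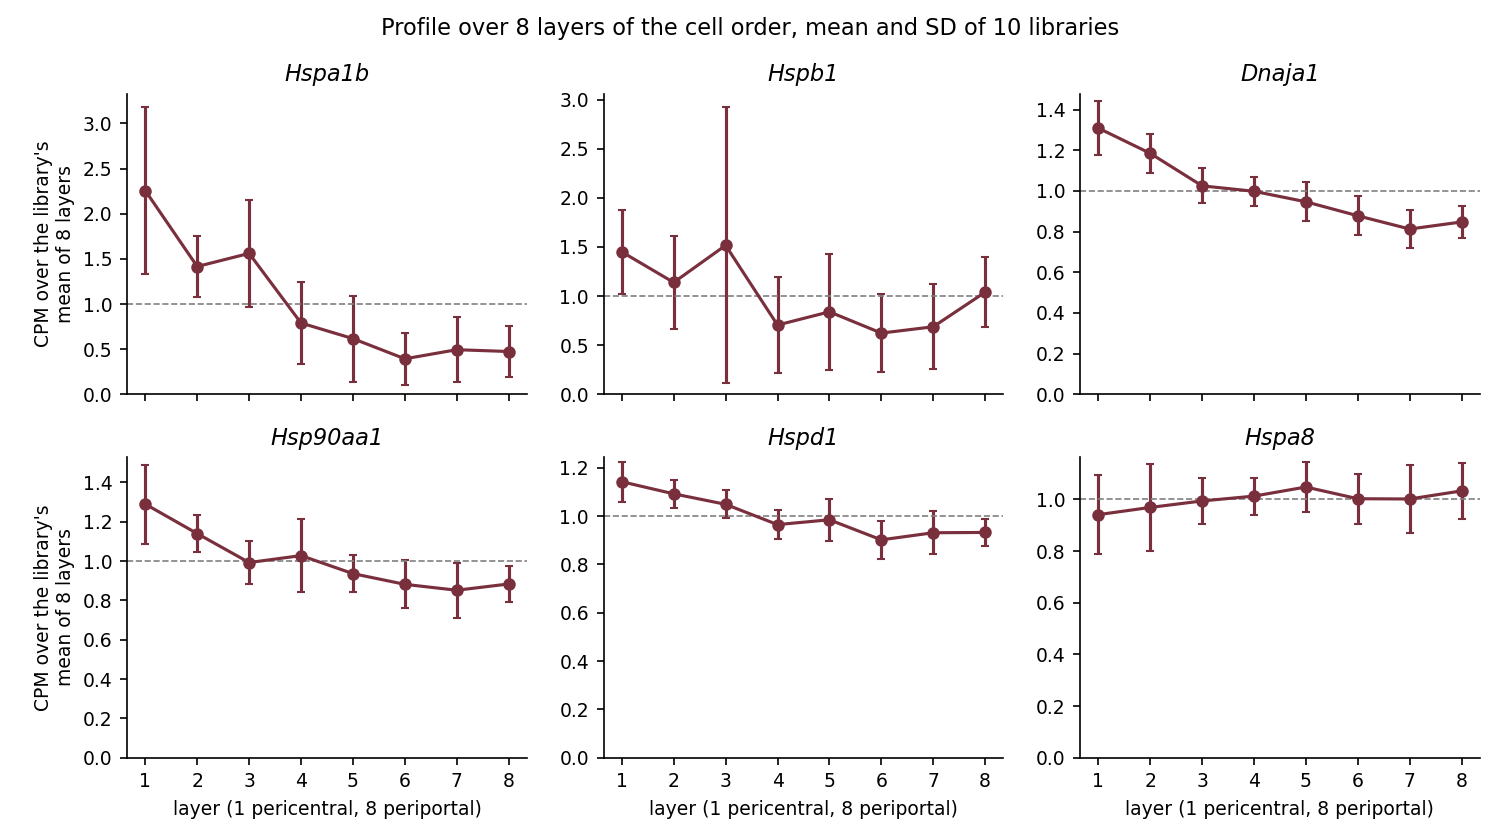
Level of 6 chaperone mRNAs over 8 layers of the cell order (horizontal axis, 1 pericentral to 8 periportal), relative to the library's mean of the 8 layers (vertical axis, dashed line at 1). Points are means of 10 libraries and bars their SD. Hspa1b goes from 2.26 in layer 1 to 0.79 in layer 4, Dnaja1 and Hsp90aa1 start at 1.31 and 1.29, and Hspa8 stays between 0.94 and 1.05.

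Whether the time course itself depended on the zone was asked with the interaction of zone and the 24-h wave. No member was called (edgeR adjusted p from 0.794 to 0.993), and 0.0337% of all genes were. At an unadjusted p under 0.05 there were 545 genes and 0 members, and DESeq2 called 0 members. The mean difference of Hsp90aa1 was negative, that is pericentral, at each time, at -0.60 ± 0.10 at ZT0 (SD, n = 3), -0.56 ± 0.16 at ZT6 (SD, n = 2), -0.29 ± 0.30 at ZT12 (SD, n = 3) and -0.28 ± 0.082 at ZT18 (SD, n = 2).

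Among the other chaperones and co-chaperones, 14 of 66 tested were called between zones (21.2%, against 24.6% of all genes), 11 pericentral and 3 periportal. The steepest pericentral ones were Hspb6, a small heat shock protein (-1.23 ± 0.20), Dnaja4 (-0.94 ± 0.35), Hsf2, a heat shock transcription factor (-0.68 ± 0.13), Grpel2, an exchange factor of the mitochondrial Hsp70 (-0.65 ± 0.16), and Dnajb2 (-0.50 ± 0.094). The periportal ones were Bag2 (1.09 ± 0.33), Dnajc3, a J-domain protein of the endoplasmic reticulum (0.34 ± 0.064), and Stub1, the ubiquitin ligase CHIP (0.31 ± 0.081). Dnaja4 and Bag2 were scarce, with 130 and 124 UMIs in all libraries together. Dnaja4 passed narrowly (edgeR adjusted p = 0.0455) and was not called by DESeq2. The endoplasmic reticulum list went the other way from the members: 10 of 18 were called periportal and none pericentral, against 11.9% and 12.7% of all genes, with Herpud1 at 0.50 ± 0.063, Hsp90b1, the Hsp90 of that compartment, at 0.42 ± 0.061, and Hspa5 at 0.40 ± 0.062.

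Some members share sequence with other loci in the annotation, which matters because reads that map to several places can be lost or moved. The last 300 bases of Hspa8 had 8 near-identical copies, of which 1 was in the files with 217 UMIs, those of Hspe1 had 4 and those of Hspb1 had 1. The other 7 members had none by this rule.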

How the data were processed

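Single hepatocytes were profiled with the 10x 3′ kit, version 2, per the labels' protocols; the submitters' processing notes name Cell Ranger and the builds mm10 and hg19 without their role. The deposited values are raw UMI counts per gene and cell, with whole numbers and different totals. Every deposited cell was used (18378), and no filter on cells or doublets was added; whether the authors removed doublets is not stated in the sources used here.

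UMI counts were summed per library, or per outer zone of a library's cell order, and fitted with edgeR 4.0.16 in R 4.3.3 (glmQLFit, glmQLFTest) after TMM scaling, keeping genes of 3 CPM or more on average. Adjusted p-values are Benjamini-Hochberg over all genes tested, with a threshold of 0.05, and landmark genes were left out of counts between zones. The 4 times shared 1 estimate of the spread. The cell order is the mean z-score of 8 periportal landmarks (Pigr, Hal, Cyp2f2, Ftcd, Ass1, Ctsc, Asl, Hsd17b13) less that of 8 pericentral landmarks (Cyp1a2, Oat, Cyp2e1, Rgn, Lect2, Gulo, Aldh1a1, Mgst1) within a library. Differences per library are on the log2(CPM + 1) scale, where folds of low genes come out too small. The fits were tested on simulated data. Near copies were sought with blastn 2.17.0.

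Libraries of the same letter at ZT0 and ZT12 deviated together (r = 0.239, 0.428 and 0.485), and share a 10x index column per the labels, so the letters were taken as pairing those times; for ZT6A and ZT18A r was 0.0326. No 2 libraries of a time agreed within sampling noise (chi-square per degree of freedom of at least 5.3). DESeq2 1.42.0, other filters, scalings, cell sets and left-out libraries were alternatives. The text names all 10 members, of each other list the called genes up to 5 each way, and the 5 genes most like Hsp90aa1, Hspa8 and Hspa1b. An exception is the dissociation-response list between zones, where all called genes are named. Members and lists were chosen with earlier results of these data known.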

Additional observations from a re-analysis of the deposited data

Results flagged for a closer look

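In 1 library a member's zone difference lay far from the rest. Dnajb1 differed by 2.87 on the log2(CPM + 1) scale between the periportal and the pericentral zone in ZT12A, and by -0.50 to 0.54 in the other 9 libraries. That value rests on 12 UMIs against 1, in the library with the fewest cells. Chance alone sets about 1 in 20 such groups apart, and 10 were examined.

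For 2 members the zone difference had one sign in all libraries of 1 time and the other sign in all libraries of another. Hspa8 was higher periportally in both ZT6 libraries (0.12 and 0.22) and in all 3 ZT12 libraries (0.013 to 0.63), and higher pericentrally in both ZT18 libraries (-0.22 and -0.44). The mean difference at ZT6 exceeded that at ZT18 by 0.50, and that at ZT12 exceeded it by 0.55. Hsph1 was higher pericentrally in both ZT6 libraries (-0.51 and -0.81) and higher periportally in both ZT18 libraries (0.12 and 0.16), a ZT6 to ZT18 difference of -0.80. The test of a zone-dependent rhythm did not call Hspa8 (edgeR adjusted p = 0.832) or Hsph1 (edgeR adjusted p = 0.796), and the single pairs of times were not tested. How many of all genes change sign in this way was not counted. With so few libraries at a time, the 2 members are therefore not shown to differ from other genes.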

How the results depend on the processing

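Hsp90aa1, Hsph1 and Hspb1 remained called for rhythm, and Hsp90aa1, Hspa1b and Dnaja1 between zones, in every alternative that tested them; no called member changed sign. Counts of members called moved by over 1.5 times in these cases, whose cause was not tested: rhythm, 5 with DESeq2 and 5 with the replicate block; ZT18 against ZT6, 5 without a filter and 7 in a fit of only the ZT6 and ZT18 libraries; ZT12 against ZT0, 1 with a filter of 20 CPM, which leaves Hspb1 untested, and 1 without ZT12B; zones, 3 in cells of at least 3000 UMIs, which are fewer. Leaving out 1 library in turn gave 3 to 4 members for rhythm, 2 to 4 for ZT18 against ZT6, 1 to 3 for ZT12 against ZT0, 5 to 6 between zones and 0 for a zone-dependent rhythm. For the Hsp90aa1 share it gave exact permutation p from 0.00397 to 0.129, and for the Hspe1 share from 0.0603 to 0.372.

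Pairing by letter, the replicate block, gave 749 rhythmic genes and 504 between ZT12 and ZT0, and 421 with 3 members when only those 6 libraries were fitted, an alternative chosen after seeing the data. The rhythm count rests in part on tying the ZT6 and ZT18 libraries by letter too. For ZT18 against ZT6, where the letters share only a name, the replicate block gave 730 genes and 4 members, adding Hspb1. It changed no other member's call.

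Counts over all genes were less stable. Rhythmic genes ran from 228 without ZT18A (249 without ZT18B, 231 without both, 272 without ZT6B, 302 without ZT12B) to 792 with DESeq2. ZT18 against ZT6 ran from 50 without ZT6A, 60 without ZT6B, 66 without ZT18B and 80 without ZT18A to 1849 in those 4 libraries alone, ZT12 against ZT0 from 184 to 504, zones from 1215 to 2525, and zone-dependent rhythms from 0 to 42. Library size alone moved the median log2 difference of all genes to -0.105 between zones and 0.134 between ZT12 and ZT0. Depth limits Hspa1b, Hspb1 and Dnajb1, with as few as 8, 6 and 22 UMIs in a library. With samples 6 h apart, a cosine and a short burst look alike.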
